A study of Mus musculus with 16 samples.

Results

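The genes described here encode the proteasome, its regulators and its assembly factors. They are the 48 genes on the array whose symbols begin with Psma, Psmb, Psmc, Psmd, Psme, Psmf or Psmg and that have at least 1 probe set annotated to that gene alone, out of 12393 genes with such a probe set. Membership rested on the symbol, and the brightest probe set over the 16 arrays stood for each gene. By particle they are 8 genes of the 20S alpha ring, 7 constitutive genes of the 20S beta ring, 3 immunoproteasome genes, 6 ATPases and 11 other subunits of the 19S cap, 3 chaperones of 19S assembly, 4 genes for activators and an inhibitor, and 4 chaperones of 20S assembly. The remaining 2, Psmc3ip and Psme3ip1, share only the prefix: they are named for a protein partner and are not subunits. Counts below are over all genes chosen by symbol, these included. A probe set annotated to both Psme2 and Psme2b was not used here.

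The proteasome is the main protease of the cytosol and nucleus, and degrades proteins that carry ubiquitin chains. Its 20S core is a barrel of stacked rings. The alpha rings gate the entrance, and in the beta rings the subunits Psmb5, Psmb6 and Psmb7 carry the chymotrypsin-like, caspase-like and trypsin-like sites. The 19S cap binds ubiquitin, removes it and unfolds the substrate with a ring of ATPases. Cells exposed to interferon gamma, and many immune cells, build the immunoproteasome, in which Psmb8, Psmb9 and Psmb10 take the places of Psmb5, Psmb6 and Psmb7 and alter the peptides supplied to MHC class I molecules. In skeletal muscle the same system breaks down myofibrillar protein during fasting, releasing amino acids that the liver can turn into glucose.

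RNA was measured on 16 one-colour 3′ expression arrays in 4 groups of 4 samples. The samples were liver and quadriceps muscle of female wild-type mice and of Klf15-null mice, all aged 4 to 5 months and all fasted for 18 h. Klf15 is a transcription factor of amino acid and glucose metabolism. The labels used here give no strain, no construction of the null allele and no statement that each sample is a separate mouse, so each p-value reflects only how far these samples lie apart, and that spread may be technical. Signals are the deposited linear intensities, and differences are on the scale of log2(signal + 16), where dim genes show less than their full change. A gene was tested when its mean signal lay at or above the 40th percentile of all non-control probe sets on the arrays compared.

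Klf15 signal averaged 1093 ± 195 (SD, n = 4) in wild-type and 165 ± 23.6 in null liver, and 611 ± 110 and 58.3 ± 35.0 in quadriceps, with no overlap in either tissue. Median signals were 41.6 to 48.9 on the liver arrays and 32.5 to 59.2 on 7 quadriceps arrays, but 15.6 on Klf15-null quadriceps array 8. That array had 21.3% of its signal in the 100 brightest probe sets, against 11.6 to 16.03% on the other quadriceps arrays, a Gapdh 3′ to 5′ ratio of 1.09 against 0.785 to 0.937, and a scan 3 days after the rest. Counts and tests that use null quadriceps are therefore given with and without it where the text turns on them. In both tissues every wild-type array was run on fluidics station 2 and every null array on station 1, and the tissues were scanned on different days. Genotype therefore cannot be told apart from the station, nor tissue from the scan day. The summed signal of 7 hepatocyte genes was at least 51436 on every liver array and at most 320.2 on any quadriceps array, and that of 8 myofibre genes was at least 81451 in quadriceps and at most 121.9 in liver.

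Proteasome genes did not differ between the tissues in one direction. In wild-type mice liver had more Psmb8, Psmb9 and Psmb10, more of 6 of the 7 assembly chaperones, and less of all 11 non-ATPase subunits of the 19S cap and of 5 of its 6 ATPases (4 with median scaling and 2 without scaling), while Psmb5, the constitutive partner of Psmb8, did not pass the test. Of the 46 genes tested, 12 were higher in liver and 27 lower (26 of 45 without Psme3ip1) with limma's moderated test after Benjamini-Hochberg adjustment over 8138 genes, and 7 did not pass. Of all genes tested, 79.4% were called (34.1% higher and 45.3% lower in liver), so a difference between tissues was the common case on these arrays. The tissues did not overlap for 37 of the 46 (12 higher and 25 lower in liver), against 74.3% of all genes (31.9% higher and 42.3% lower). The median difference of liver minus quadriceps was -0.41 over the 46 and -0.18 over all genes tested. In Klf15-null mice 12 were higher in liver and 26 lower, with 72.0% of all genes called (32.9% higher and 39.0% lower). Leaving out null quadriceps array 8 gave 11 and 28, with 73.0% of all genes called (34.3% higher and 38.7% lower). The null groups did not overlap for 10 genes higher and 24 lower in liver, against 67.1% of all genes (30.8% higher and 36.3% lower), and without array 8 for 10 and 27, against 72.6% (34.1% higher and 38.5% lower). The split of calls depends on scaling: with quadriceps array 8 included, scaling each array to a common median gave 12 higher and 10 lower and unscaled signals gave 12 and 4, and the median of all genes moved from -0.11 to 0.01 and 0.36. The shares of all genes called under those scalings are not given here, so the fall in lower calls is not read as particular to proteasome genes.

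**Figure D1:**
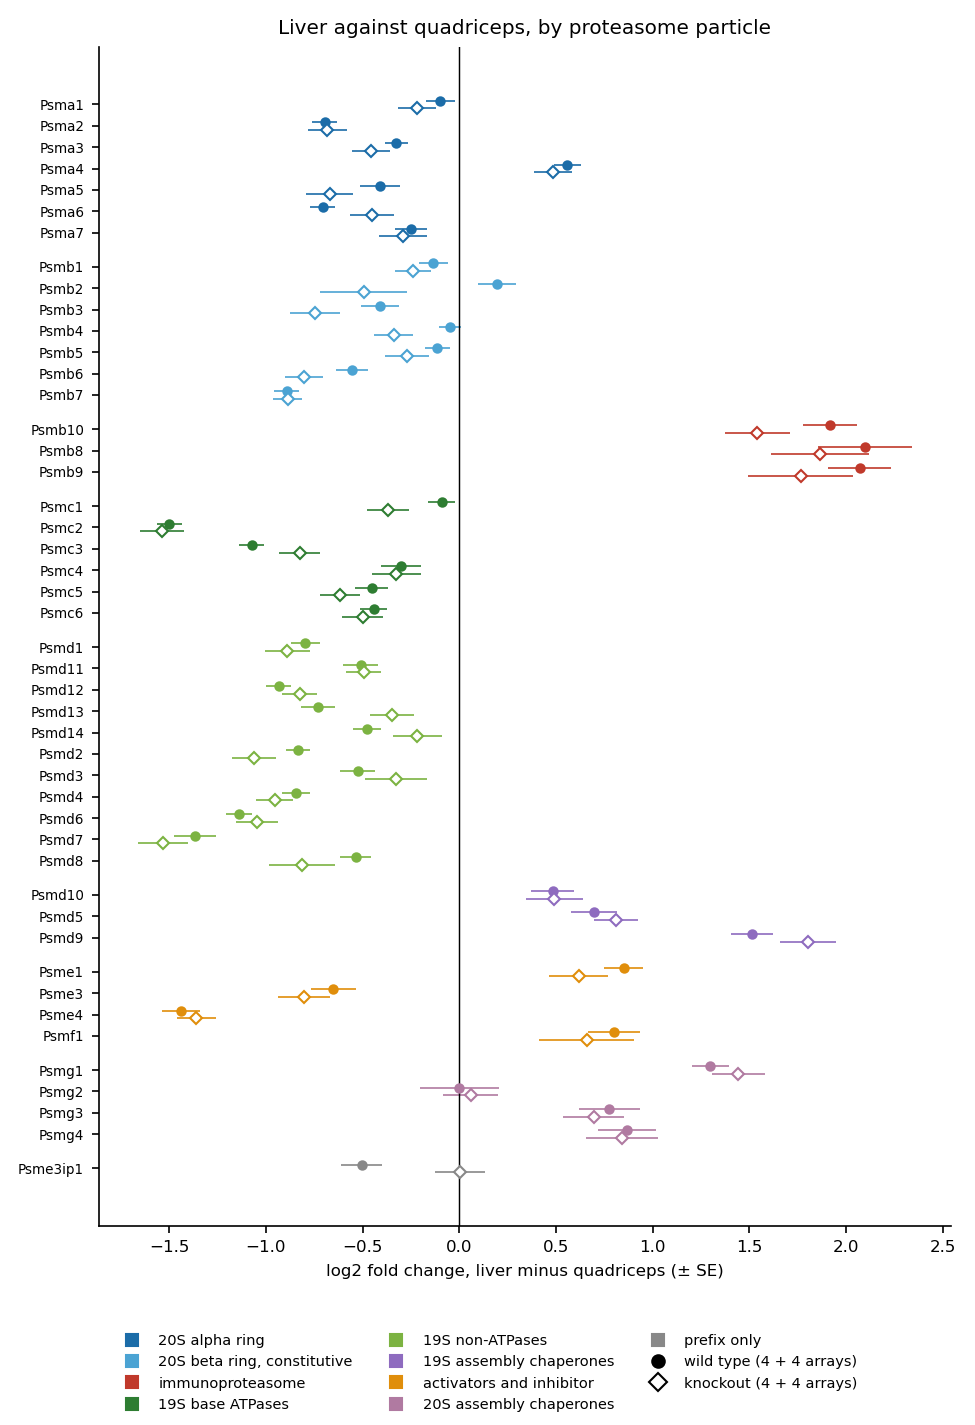
Differences between liver and quadriceps for each proteasome gene tested, grouped by particle, as log2(signal + 16) in liver minus quadriceps after quantile normalization, in wild-type and in Klf15-null mice. Immunoproteasome genes lie between 1.92 and 2.10 in wild-type mice, and the 19S non-ATPases between -1.37 and -0.48, all below 0 in each scaling of the wild-type arrays. In null mice some 19S genes change sign without scaling.

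In wild-type mice the immunoproteasome genes had the highest liver to quadriceps differences among the 46. Psmb8, the immune counterpart of Psmb5, had signals of 300.4, 368.4, 186.2 and 420.3 in wild-type liver and 70.18, 48.19, 87.85 and 39.33 in wild-type quadriceps. Psmb9, which replaces Psmb6, had 187.9, 196.2, 188.4 and 234.7 in liver and 49.4, 22.54, 41.7 and 33.02 in quadriceps. Psmb10, which replaces Psmb7, had 381.9, 432.5, 277.9 and 441.3 in liver and 85.99, 83.21, 98.25 and 85.77 in quadriceps. Every liver array was above every quadriceps array for all 3 genes. The log2 differences were 2.10 ± 0.24 (SE), 2.07 ± 0.16 and 1.92 ± 0.14, with adjusted p = 4.91e-06, 1.19e-07 and 5.05e-08. In Klf15-null mice they were 1.86, 1.76 and 1.54, with adjusted p = 3.66e-05, 9.78e-05 and 5.54e-06, and without null quadriceps array 8 they were 1.69, 1.96 and 1.43, with adjusted p = 7.67e-05, 9.07e-05 and 1.01e-05. All 3 passed in both genotypes under every scaling run.

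The constitutive catalytic subunits behaved differently from one another. Psmb5 gave 1245, 1220, 1140 and 1170 in wild-type liver and 1326, 1223, 1347 and 1277 in quadriceps, a difference of -0.11 that did not pass. For Psmb6 the liver arrays gave 813.2, 988.6, 904.4 and 893.5 and the quadriceps arrays 1429, 1241, 1407 and 1234, so that liver was lower without overlap (-0.55). Psmb7 was also lower in liver without overlap, at 2870, 2628, 2855 and 2640 against 5504, 5293, 5004 and 4674 (-0.89, adjusted p = 4.64e-08).

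The promoters of 4 of these catalytic genes, and of 2 genes described further on, are printed to show the sequence in front of the constitutive and the immune member of a pair. Windows from RefSeq on build GRCm38.p6 run from 250 bases before to 50 bases after the annotated start and were available for 40 of the 48 genes. They were searched on both strands for 3 motifs: TGACNNNGC, the core of the antioxidant response element and related sites, CCAAT, and the core of the interferon-stimulated response element, searched as TTTC, any 2 bases and TTTC again. Capitals mark each match, and no letters of 2 motifs overlap in the windows printed. Psmb5 is on the minus strand at chr14:54617946-54618245 and Psmb6 on the plus strand at chr11:70525107-70525406, and both hold TGACNNNGC before the start. Psmb8, on the plus strand at chr17:34197945-34198244, holds none of the 3. Psmb9, on the minus strand at chr17:34187281-34187580, holds CCAAT on the opposite strand, read here as ATTGG. Psme1, on the plus strand at chr14:55578244-55578543, holds the interferon-stimulated element just after the start, and Psmd9, on the plus strand at chr5:123227940-123228239, holds TGACNNNGC and, on the opposite strand, the interferon-stimulated element.
Psmb5: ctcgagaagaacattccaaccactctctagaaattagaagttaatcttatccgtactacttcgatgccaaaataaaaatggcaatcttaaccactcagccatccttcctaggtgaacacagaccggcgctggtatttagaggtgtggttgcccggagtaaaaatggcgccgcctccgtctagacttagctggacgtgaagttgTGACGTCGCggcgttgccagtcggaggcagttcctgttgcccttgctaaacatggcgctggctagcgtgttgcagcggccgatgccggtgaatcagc
Psmb8: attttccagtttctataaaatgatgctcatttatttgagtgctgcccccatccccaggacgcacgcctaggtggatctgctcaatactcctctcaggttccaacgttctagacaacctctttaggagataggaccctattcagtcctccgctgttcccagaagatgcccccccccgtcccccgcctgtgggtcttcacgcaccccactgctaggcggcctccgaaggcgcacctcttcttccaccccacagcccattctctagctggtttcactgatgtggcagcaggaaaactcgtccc
Psmb6: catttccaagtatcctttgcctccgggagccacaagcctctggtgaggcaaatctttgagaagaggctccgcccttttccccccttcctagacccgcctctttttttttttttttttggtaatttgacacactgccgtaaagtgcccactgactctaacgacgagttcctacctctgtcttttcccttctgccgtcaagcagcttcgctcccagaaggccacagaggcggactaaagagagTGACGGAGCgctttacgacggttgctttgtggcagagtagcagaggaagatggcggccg
Psmb9: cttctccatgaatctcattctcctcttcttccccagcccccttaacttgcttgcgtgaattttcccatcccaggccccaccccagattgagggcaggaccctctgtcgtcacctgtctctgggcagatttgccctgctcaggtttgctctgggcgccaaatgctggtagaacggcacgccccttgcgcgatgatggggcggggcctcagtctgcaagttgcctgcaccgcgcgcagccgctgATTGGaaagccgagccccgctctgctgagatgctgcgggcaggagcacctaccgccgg
Psme1: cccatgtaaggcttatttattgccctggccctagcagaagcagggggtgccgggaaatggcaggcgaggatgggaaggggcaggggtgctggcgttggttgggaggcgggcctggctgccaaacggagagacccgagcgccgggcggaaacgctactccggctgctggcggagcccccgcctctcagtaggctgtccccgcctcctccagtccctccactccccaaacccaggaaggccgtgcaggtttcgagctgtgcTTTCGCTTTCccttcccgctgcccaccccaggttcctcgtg
Psmd9: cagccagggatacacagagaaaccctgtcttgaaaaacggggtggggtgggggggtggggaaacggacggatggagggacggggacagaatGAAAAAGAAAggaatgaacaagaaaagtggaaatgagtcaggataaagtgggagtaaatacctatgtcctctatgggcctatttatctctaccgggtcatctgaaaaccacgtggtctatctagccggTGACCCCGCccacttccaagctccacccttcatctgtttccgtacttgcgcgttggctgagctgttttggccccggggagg

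Across the 40 genes with a window, TGACNNNGC was found in 6 (15%), against 12.5% of 27025 genes with a window in the whole table. The 6 were Psmb5, Psmb6, Psmc6, Psmd12, Psmd9 and Psme4. CCAAT was found in 14 (35%), against 37.9%. The interferon-stimulated element was found in 5 (12.5%), namely Psmb3, Psmd4, Psmd9, Psme1 and Psmg4, against 3.49%. A match describes the letters in the window and nothing about the binding of a factor.

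Because the immune subunit replaces the constitutive one in the assembling ring, the log2 difference of each pair within an array was compared between groups by a two-sided exact permutation test. The absolute value of such a difference depends on the 2 probe sets and was not read; only its change between groups was. In wild-type mice the Psmb8 minus Psmb5 difference was 2.21 higher in liver than in quadriceps, that of Psmb9 minus Psmb6 was 2.62 higher, and that of Psmb10 minus Psmb7 was 2.81 higher. In null mice the shifts were 2.13, 2.57 and 2.43. Liver and quadriceps did not overlap for any pair, and each p was 0.0286, the smallest that 4 against 4 allows, with adjusted p = 0.049 over the 12 pair comparisons. All 6 shifts went toward the immune subunit in liver. Without null quadriceps array 8 the null shifts were 2.01, 2.73 and 2.35, still without overlap, at exact p = 0.0571, the smallest that 3 against 4 allows.

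**Figure D2:**
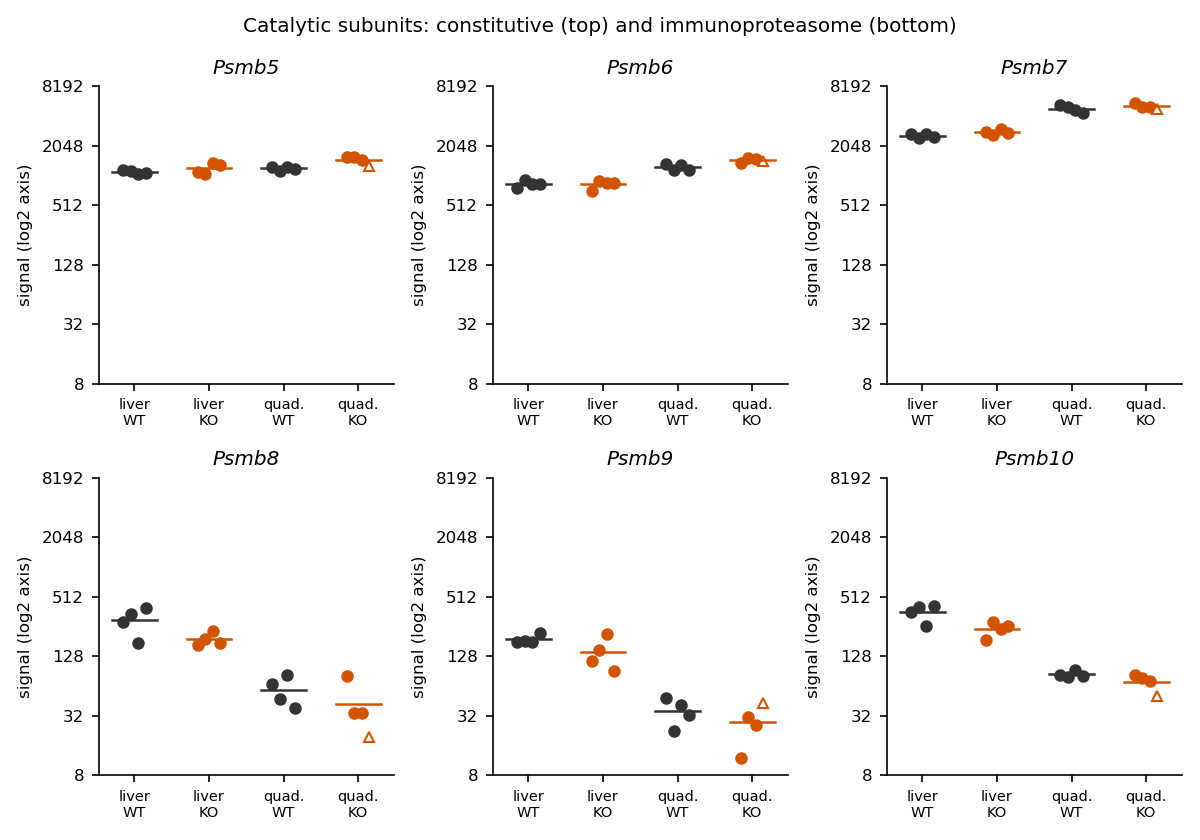
Signals of the 3 constitutive catalytic subunits and their immune counterparts on each of the 16 arrays, quantile-normalized together, on a log2 axis, with a line at each group mean and an open triangle for Klf15-null quadriceps array 8. The immune subunits separate liver from quadriceps, whereas Psmb5 does not in wild-type mice (log2 difference -0.11).

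Macrophage and class I genes were also higher in liver. All 9 macrophage and Kupffer cell markers tested were higher in wild-type liver, against 34.1% of all genes. The summed signal of the 10 markers on the list was 4129 to 6182 on the liver arrays as deposited. In quadriceps it was 1120 to 1486 after its own normalization. The Kupffer cell genes Clec4f and Marco were below the signal filter in quadriceps. The summed signal of 8 lymphocyte markers was 292.7 to 463.8 in wild-type liver and 103.5 to 127.3 in quadriceps. In liver most of it came from Ptprc alone, with a mean of 241 against 38.1 in quadriceps. Of the 8 markers, 6 in wild-type liver and 7 in wild-type quadriceps were below the filter, among them the defining T and B cell genes Cd3e, Cd3g, Cd8a and Ms4a1. Of 11 genes of MHC class I presentation, 10 were higher in wild-type liver, against 34.1% of all genes, and 1, Tap2, did not pass. These included the peptide transporter gene Tap1 (1.81), the class I light chain B2m (1.89) and the heavy chain genes H2-K1 (2.64) and H2-D1 (2.32). The part of these cells in the immunoproteasome difference was not tested, and in bulk tissue fewer cells of a type and less RNA per cell cannot be told apart.

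The 19S cap was lower in liver throughout its tested non-ATPase subunits. In wild-type mice all 11 were lower, from -0.48 to -1.37, with a median of -0.80, and the groups did not overlap for any of them. Of all genes tested, 45.3% were called lower in liver and 42.3% were lower without overlap. Psmd7, the lid subunit that pairs with the deubiquitinase Psmd14, had 472.3, 462.9, 435.1 and 401.9 in liver and 1435, 1175, 1085 and 1005 in quadriceps (-1.37 ± 0.11, adjusted p = 1.14e-07). Every quadriceps array had more than double the liver signal. Psmd6 and Psmd12, both lid subunits, followed with -1.14 and -0.93. Psmd4, a ubiquitin receptor of the cap, differed by -0.85, and the base scaffolds Psmd2 and Psmd1 by -0.83 and -0.80. All 11 stayed below 0 with unscaled and median-scaled arrays, and 10 and 11 of them passed.

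Among the ATPases that unfold substrates, Psmc2 had the greatest difference of any proteasome gene lower in liver. It gave 1205, 1071, 1066 and 1135 in wild-type liver and 3351, 3109, 3146 and 3152 in quadriceps (-1.50 ± 0.06, adjusted p = 2.3e-10), with tight spreads and no overlap, but its probe set also matches other transcripts according to its design suffix. Psmc3 averaged 918 ± 57.4 in liver and 1948 ± 37.5 in quadriceps (-1.07, adjusted p = 1.02e-08). Psmc1 did not pass (-0.09). In null mice all 6 ATPases were lower in liver, along with 9 of 11 non-ATPases, Psmd3 and Psmd14 being the exceptions, against 39.0% of all genes. Without array 8 these counts were also 6 and 9, against 38.7%. Those null values flip with scaling: without scaling 4 of the 6 ATPases were above 0, and 1 of the 11 non-ATPases passed as lower.

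The alpha ring and the noncatalytic beta subunits showed smaller differences. Of the 7 alpha ring genes tested in wild-type mice, 5 were lower in liver (4 with median scaling and 2, Psma2 and Psma6, without scaling), Psma4 was higher (0.56, adjusted p = 9.83e-06) and Psma1 did not pass (-0.10). Psma6 and Psma2 each differed by -0.70. The Psma6 probe set also matches other transcripts according to its suffix, and other probe sets of Psma6 above the filter gave -0.36 and 0.19. Psma7 gave -0.25 on 1 probe set and 0.29 on the other. The eighth gene, Psma8, replaces Psma7 in the testis; it reached at most 21.4 on any liver array and 9.31 on any quadriceps array and was not tested. Of the 7 constitutive beta genes, 3 were lower in liver (Psmb3, Psmb6 and Psmb7) and none was higher, while Psmb1, Psmb2, Psmb4 and Psmb5 ranged from -0.13 to 0.20 without passing. Among all genes tested, 45.3% were called lower and 34.1% higher in wild-type liver, so these ring counts are not read as particular to the rings. The beta ring median of -0.13 became 0.01 without scaling.

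Assembly chaperones were mostly higher in liver. Psmd9, Psmd5 and Psmd10, chaperones of the 19S ATPase ring, were all higher in wild-type liver (1.51, 0.70 and 0.48) and in null liver (1.80, 0.81 and 0.49). Psmd9 had 314.3, 293.6, 318.1 and 257.9 in wild-type liver and 90.62, 85.08, 106.5 and 90.21 in quadriceps, so the lowest liver array had more than double the highest quadriceps signal. A dimmer second probe set of Psmd9, below the filter in wild-type mice, differed by -0.25 there. In null mice that probe set lay above the filter and also had the opposite sign to the brightest. Among the chaperones that assemble the alpha ring, Psmg1 was higher in liver at 420.3, 426.2, 376.5 and 400.7 against 176.9, 156.2, 153.1 and 137.4 (1.30 ± 0.10, adjusted p = 7.13e-08). Psmg3 (0.78) and Psmg4 (0.87) were also higher. Psmg2, the partner of Psmg1 in a heterodimer, did not pass (0.00), and its second probe set differed by -1.08. The calls for the 19S chaperones and for Psmg1, Psmg3 and Psmg4 held in both genotypes under each scaling, and in null mice without array 8.

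The activators split by type. Psme1, the interferon-inducible alpha subunit of the PA28 cap, had 969.3, 911.8, 734.5 and 843.1 in wild-type liver and 494.8, 411.9, 479.8 and 499.6 in quadriceps (0.85, adjusted p = 5.6e-06). Psme4, which encodes the PA200 cap, was lower in liver at 1159, 903.7, 1131 and 937.1 against 2693, 3178, 2528 and 2875 (-1.44 ± 0.10, adjusted p = 2.82e-08). Neither gene's groups overlapped. Psme3, the nuclear PA28 gamma, was lower (-0.65), and Psmf1, the inhibitor PI31, was higher (0.80, adjusted p = 0.000126). In null mice the 4 genes had the same calls, with 0.62 for Psme1 and -1.36 for Psme4, but the tissues overlapped for Psme1 and Psmf1. Without array 8 Psmf1 did not pass (0.59, adjusted p = 0.0695). Psme3 and Psmf1 also had another probe set above the filter with the opposite sign in null mice.

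Few proteasome genes differed between null and wild-type liver. Psmd13, Psmd9 and Psmg2 were higher in null liver, Psma5 and Psmb10 were lower, and 41 of the 46 tested did not pass. Of all 7987 genes tested 10.1% were called (4.87% higher and 5.26% lower), which is close to the 5 of 46 here. The median difference was -0.04 over the 46 and 0.03 over all genes, and 8 of the 46 (17.4%) had an unadjusted p under 0.05 in limma, against 23.5% of all genes. The groups did not overlap for 2 genes, Psmd13 and Psmd9, both higher in null liver, against 15.9% of all genes tested (8.44% higher and 7.50% lower). The 3 higher calls became 1 without wild-type array 2 or 4 or null array 7, and the 2 lower calls became 1 without wild-type array 2 or null array 7 and 0 without wild-type array 1 or 4 or null array 5 or 8.

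**Figure D3:**
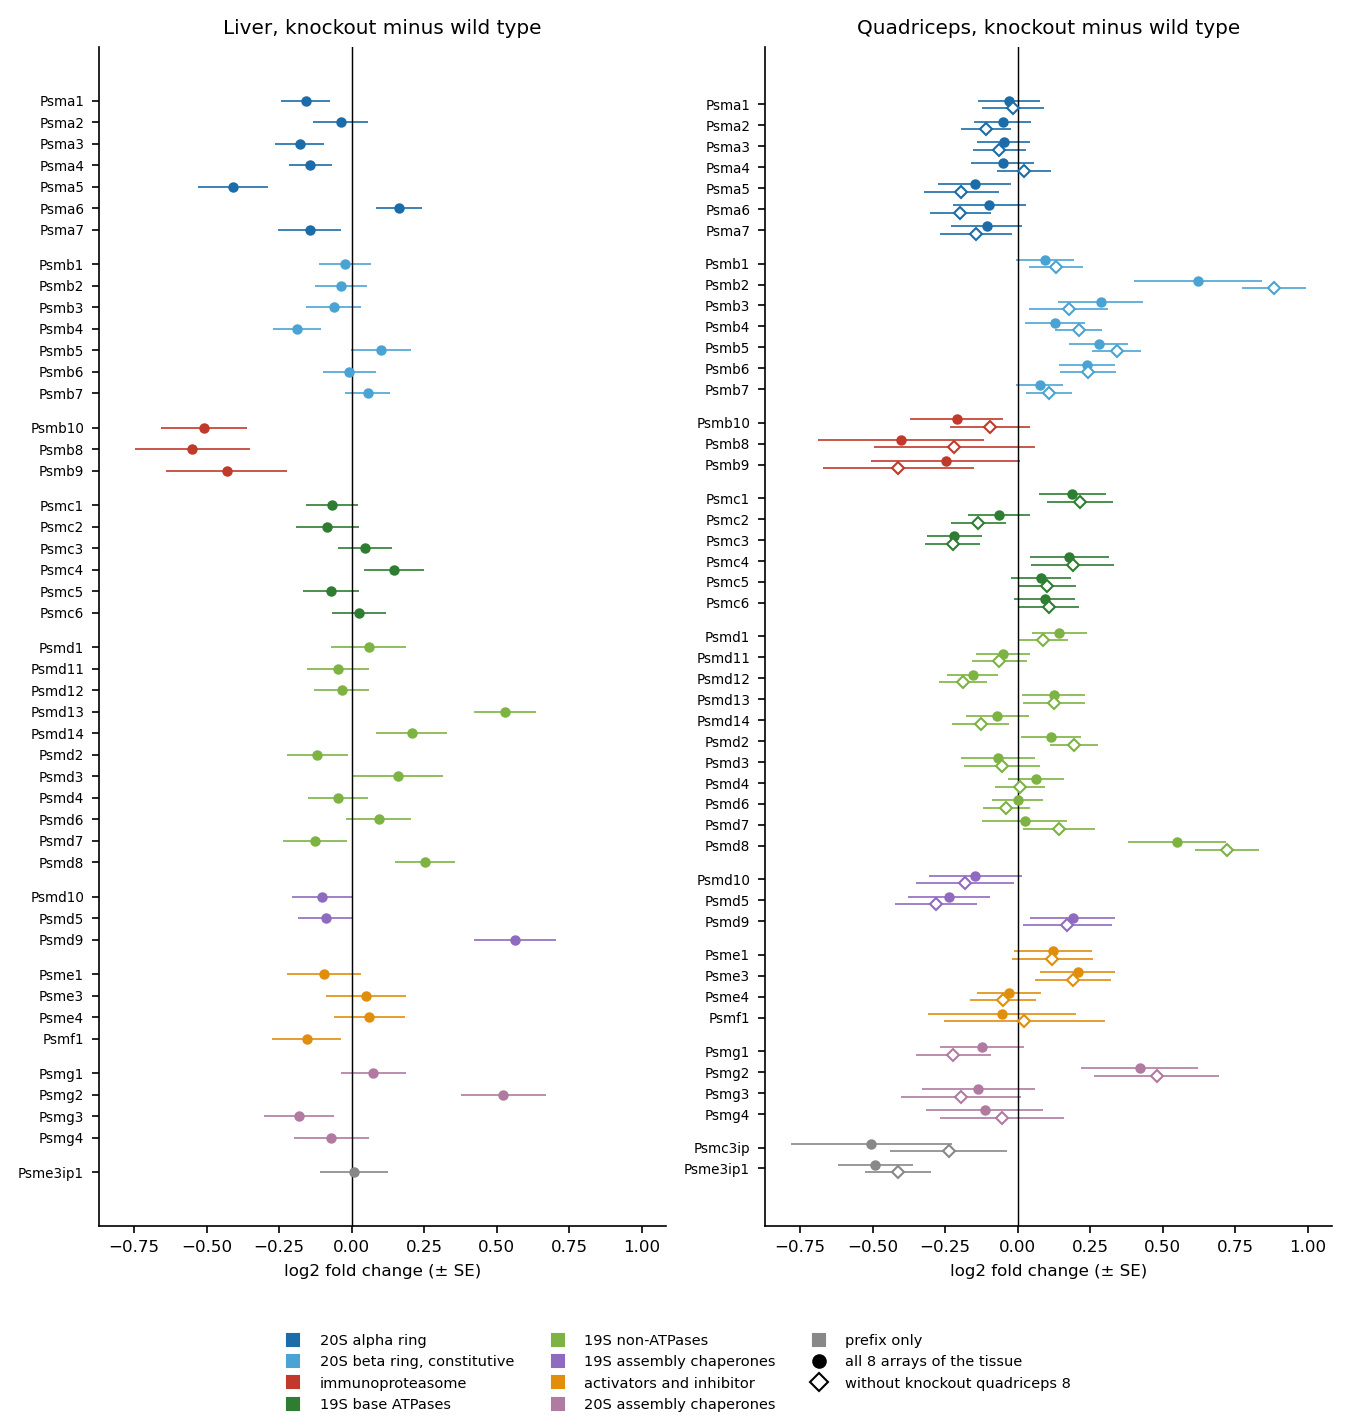
Differences between Klf15-null and wild-type mice for each proteasome gene tested, grouped by particle, as log2(signal + 16) in null minus wild type, in liver as deposited and in quadriceps after quantile normalization with all arrays and without null quadriceps array 8. The 7 constitutive beta genes lie above 0 in quadriceps in these 2 fits (median 0.24 and 0.21) but 1 of 7 does without scaling, and the 3 immunoproteasome genes lie below 0 in both tissues under every scaling run.

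Psmd13, a lid subunit, was the steadiest of the 5. Its signals were 269.7, 253.4, 246.7 and 221.4 in wild-type liver and 356.2, 317.4, 390.2 and 396.9 in null liver. All null arrays were above all wild-type arrays (0.53 ± 0.11, adjusted p = 0.00706), and the call held in each of the 17 other settings run. Psmd9, the 19S chaperone that was also higher in liver than in quadriceps, had 341.3, 291.7, 325.5 and 238.9 in wild-type and 426.1, 397.2, 572.9 and 407.1 in null liver, again without overlap (0.56 ± 0.14, adjusted p = 0.0229). It passed in 13 of 17 settings. Second probe sets gave 0.46 for Psmd13 and 0.34 for Psmd9.

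The other 3 calls were less steady. Psmg2, a 20S chaperone, had 178.3, 139.1, 206.1 and 135.1 in wild-type and 196.8, 273.7, 257.3 and 239.2 in null liver, with the lowest null array inside the wild-type range (0.52 ± 0.15, adjusted p = 0.0391, 7 of 17 settings). Psma5, of the alpha ring, fell from 1642, 1208, 1648 and 1304 to 1017, 1209, 1171 and 934.7 (-0.41 ± 0.12, adjusted p = 0.0489, 6 of 17). Its highest null array overlapped the lowest wild-type array. Of the 6 other alpha ring genes tested, 5 were below 0 without passing, and the ring's median was -0.15.

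Immunoproteasome transcripts were lower in null than in wild-type liver in their means, with 1 of the 3 genes called. Psmb10 had 414, 432.7, 281.3 and 409.8 in wild-type and 210, 305.6, 271.3 and 269.3 in null liver (-0.51 ± 0.15, adjusted p = 0.0478), and passed in 3 of 17 other settings. Psmb8 had 328.2, 367.8, 186.9 and 391.9 against 185.9, 204.1, 259.6 and 178.6 (-0.55 ± 0.20, adjusted p = 0.106), and Psmb9 had 204.9, 193.8, 188.9 and 218.9 against 124.8, 157.1, 241.6 and 91.4 (-0.43 ± 0.21, adjusted p = 0.235). Wild-type array 3 was the lowest wild-type array for all 3 genes, and the groups overlapped for each. Their constitutive counterparts did not pass, at 0.10 for Psmb5, -0.01 for Psmb6 and 0.05 for Psmb7. The summed macrophage markers were 4805 to 8039 in null liver against 4129 to 6182 in wild type, with 1 of 10 called, Marco, which was higher, and the lymphocyte sum was 326.6 to 588.6 against 292.7 to 463.8. Their part in these values was not tested.

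In the remaining groups liver differences were small. Psmb4, the constitutive beta gene with the lowest p, gave 2326, 2285, 2245 and 1983 in wild-type and 1822, 1891, 2183 and 1851 in null liver, a difference of -0.19 that did not pass (adjusted p = 0.186). The ATPase with the lowest p was Psmc4, at 1247, 1112, 924 and 1117 against 1200, 1119, 1383 and 1161 (0.15, adjusted p = 0.449). Among activators and the inhibitor it was Psmf1, at 194.7, 168.2, 193.2 and 163.3 against 166.3, 131.2, 179 and 164.8 (-0.16, adjusted p = 0.482). The groups overlapped for all 3. Psme1 gave 1089, 933.4, 782.5 and 812.6 in wild-type and 683.6, 974.6, 875.9 and 845.3 in null liver (-0.10).

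**Figure D4:**
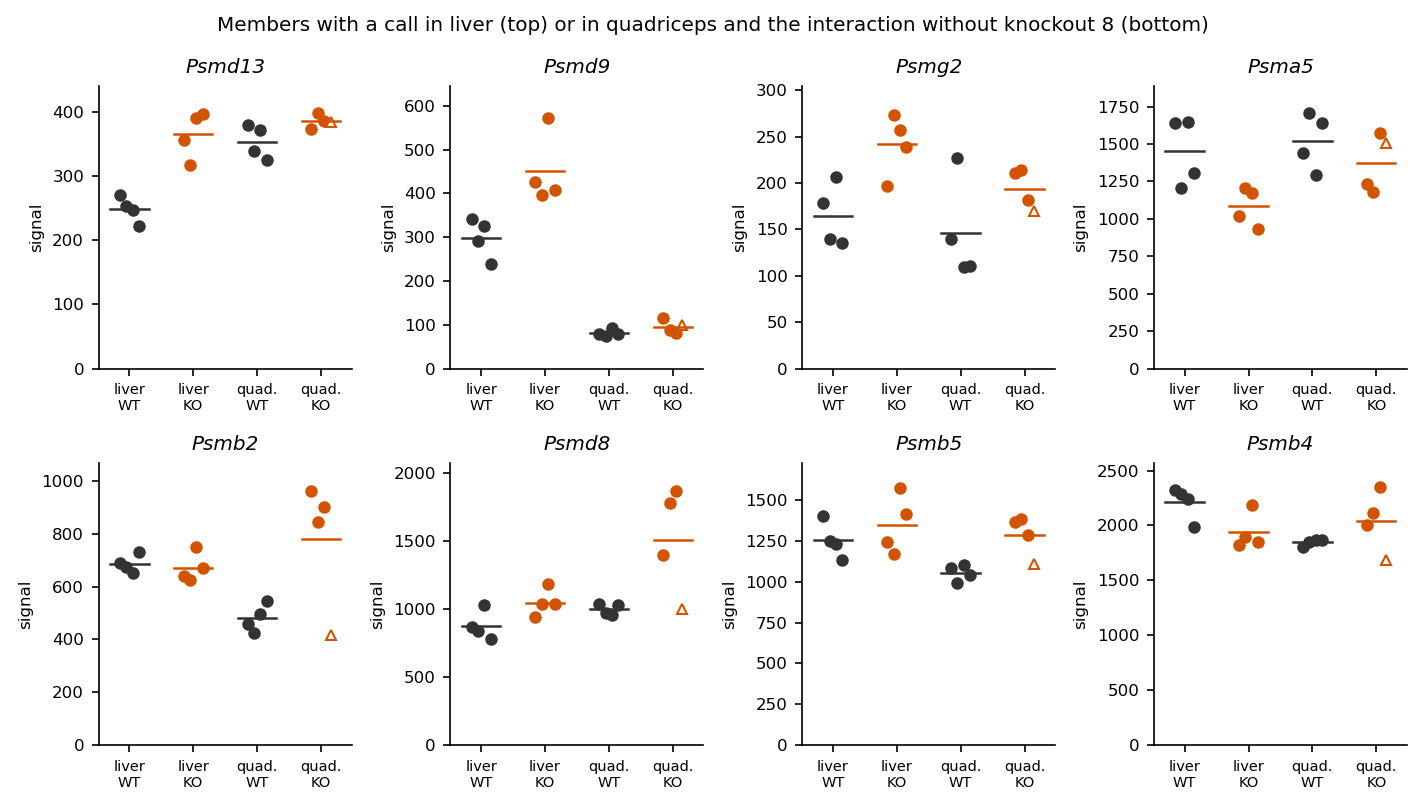
Signals per array in wild-type and Klf15-null samples, with group means, on linear axes that start at 0. Liver is as deposited and quadriceps after quantile normalization. Psmd13, Psmd9, Psmg2 and Psma5 were called in liver, and Psmb2, Psmd8 and Psmb5 in quadriceps without null array 8. Psmb4 was called without array 8 only in the comparison of the knockout differences. Psmb10, also called in liver, is not drawn here. In liver Psmd13 and Psmd9 do not overlap, and in quadriceps null array 8 lies at 417.5 for Psmb2 against 843.3 to 963.7 on the other null arrays.

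In quadriceps no proteasome gene passed with all 8 arrays. Limma called 0 of 47, with 6 (12.8%) at an unadjusted p under 0.05 against 15.2% of all genes, and called 0.826% of all 7989 genes tested (0.0751% higher and 0.751% lower). Without null array 8, the library that stood apart, 3 genes rose, namely Psmb2, Psmb5 and Psmd8, none fell and 10 (21.3%) had an unadjusted p under 0.05 against 27.4% of all genes, while 8.26% of all genes were called (2.99% higher and 5.27% lower). With all arrays the groups did not overlap for 4 of 47, against 8.44% of all genes (2.37% higher and 6.07% lower). Psmb5 and Psmb6 were higher in null quadriceps, and Psmc3 and Psme3ip1 lower. Without array 8 there were 7 higher and 5 lower, against 24.3% of all genes (7.71% higher and 16.6% lower).

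Psmb2, a noncatalytic beta subunit, rested most on that array. Wild-type quadriceps gave 457.9, 425.1, 495.2 and 544.3, and null arrays 5 to 8 gave 963.7, 843.3, 900.2 and 417.5. The first 3 null arrays were above every wild-type array and array 8 was below every one. The difference was 0.62 ± 0.22 (adjusted p = 0.241) with array 8 and 0.88 ± 0.11 (adjusted p = 0.00168) without it. With median scaling and no array 8 it was 0.53 (adjusted p = 0.0306), and with unscaled signals and no array 8 it was 0.55 (adjusted p = 0.288).

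Psmd8, a lid subunit, had the same arrangement. It gave 1038, 972.1, 960.6 and 1029 in wild type and 1397, 1784, 1872 and 999.6 in null arrays 5 to 8, with array 8 inside the wild-type range. Its difference was 0.55 ± 0.17 (adjusted p = 0.181) with array 8 and 0.72 ± 0.11 (adjusted p = 0.0042) without it, and 0.38 (adjusted p = 0.170) with median scaling and no array 8. Psmb5, the chymotrypsin-like subunit, gave 1084, 995, 1101 and 1039 in wild type and 1368, 1383, 1286 and 1110 in null arrays 5 to 8. All 4 null arrays were higher, by 0.28 ± 0.10 (adjusted p = 0.247) with array 8 and by 0.34 ± 0.09 (adjusted p = 0.0374) without it, but median scaling without array 8 gave 0.00 and unscaled signals with all arrays gave -0.23.

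The direction of the constitutive beta ring as a group followed the scaling. All 7 genes were above 0 after quantile normalization (median 0.24), 6 of 7 after median scaling (0.12) and 1 of 7 without scaling (-0.23), where the medians of all genes were -0.06, -0.18 and -0.48. Relative to the median of all genes, all 7 were higher in each of these. Psmb6 gave 1172, 1011, 1155 and 1005 in wild type and 1207, 1346, 1318 and 1258 in null arrays 5 to 8, without overlap (0.24, adjusted p = 0.282). Psmb7 gave 5136, 4919, 4615 and 4288 against 5447, 4976, 4895 and 4646, with overlap. In the alpha ring 0 of 7 genes were above 0 (median -0.05), also with median scaling and without scaling, and 1 of 7 without array 8.

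Immunoproteasome genes in quadriceps were dim, and none passed. Psmb8 gave 62.54, 43.98, 77.25 and 36.48 in wild type and 74.71, 32.64, 32.46 and 19.41 in null arrays 5 to 8 (-0.40, adjusted p = 0.514). Psmb9 gave 45.06, 21.93, 38.54 and 31.11 against 12.04, 29.89, 24.94 and 40.59 (-0.25, adjusted p = 0.658), and Psmb10 gave 75.79, 73.46, 85.97 and 75.62 against 76.89, 71.64, 66.86 and 47.34 (-0.21, adjusted p = 0.544). The genotypes overlapped for all 3. All 3 were below 0 in every scaling, but their median relative to that of all genes ranged from -0.19 to 0.01 over the scalings, with and without array 8.

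Other quadriceps genes with the lowest p of their group did not pass. Psmc3, an ATPase, gave 1593, 1656, 1612 and 1581 in wild type and 1466, 1196, 1479 and 1401 in null arrays 5 to 8, all lower (-0.22, adjusted p = 0.306). Psme3ip1, named for its interaction with PA28 gamma, gave 215.8, 194.6, 216.8 and 198.7 against 159.7, 146, 147.6 and 118.1, again all lower (-0.49, adjusted p = 0.124; without array 8, adjusted p = 0.0504). Psmg2, which rose in null liver, gave 139.5, 227.2, 109.1 and 110 against 210.5, 214.1, 181.5 and 169.6 (0.42, adjusted p = 0.347), but its second probe set gave -0.23. Psmd5 gave 145.4, 163.2, 126.2 and 184.9 against 126.2, 123, 121.6 and 141.7 (-0.24), and Psma5 1442, 1709, 1292 and 1642 against 1232, 1177, 1572 and 1507 (-0.15). Psme3 gave 222.1, 195.4, 205.3 and 190.6 against 213.7, 278.9, 214.6 and 244.7 (0.21), and Psme1 413, 346.2, 401.1 and 416.6 against 534.3, 402.9, 365.4 and 428.9. Genotypes overlapped for Psmg2, Psmd5, Psma5, Psme3 and Psme1.

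The other genes called in null liver can be set beside their quadriceps values. Psmd13 gave 378.7, 339, 371.3 and 324.3 in wild-type quadriceps and 373.2, 398.6, 385.7 and 384.5 in null arrays 5 to 8, and Psmd9 gave 79.66, 75.03, 92.92 and 79.3 against 114.6, 88.73, 80.24 and 99.79. In both the null values lay mostly in the upper part of the range, with overlap.

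Within the catalytic pairs, the difference between immune and constitutive subunit was lower in null mice on average in both tissues. In liver Psmb10 minus Psmb7 was -2.83, -2.58, -3.28 and -2.60 in wild type and -3.70, -3.07, -3.46 and -3.32 in null, a change of -0.56 (exact p = 0.0571, adjusted p = 0.0762). For Psmb8 minus Psmb5 the change was -0.65 (exact p = 0.0857) and for Psmb9 minus Psmb6 -0.42 (exact p = 0.171), and the genotypes overlapped for all 3 pairs. In quadriceps Psmb10 minus Psmb7 was -5.81, -5.79, -5.51 and -5.55 in wild type and -5.88, -5.83, -5.89 and -6.20 in null arrays 5 to 8, a change of -0.29 without overlap (exact p = 0.0286, adjusted p = 0.049). Without array 8 it was -0.20 (exact p = 0.0571, the smallest that 3 against 4 allows). The quadriceps change for Psmb8 minus Psmb5 was -0.68 (exact p = 0.0857) and, without array 8, -0.56 (exact p = 0.171). For Psmb9 minus Psmb6 it was -0.49 (exact p = 0.0571) and, without array 8, -0.65 without overlap (exact p = 0.0571). Neither passed.

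**Figure D5:**
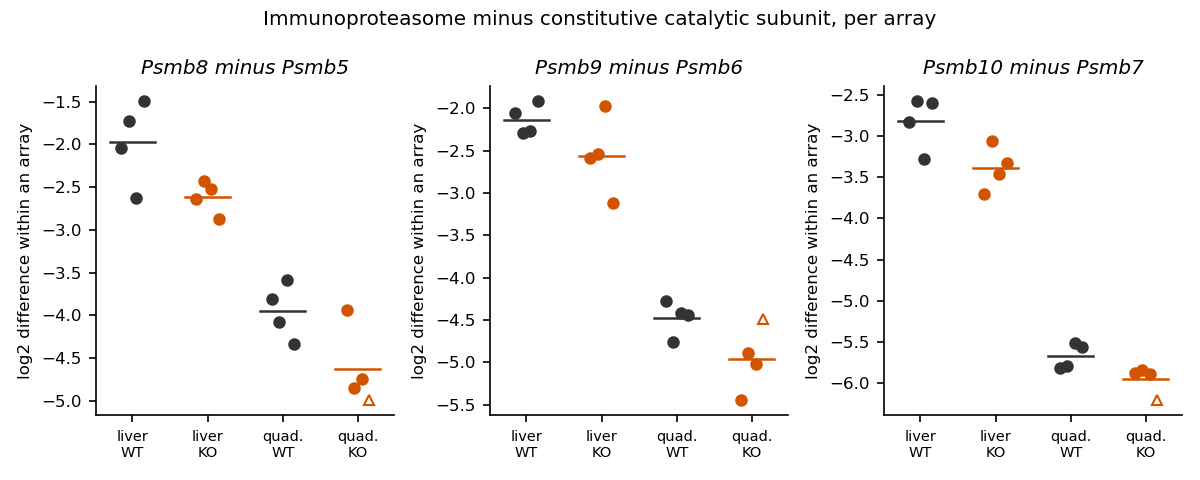
Log2 difference of each immune subunit minus its constitutive counterpart on each array, by tissue and genotype, with group means. Each liver array lies above each quadriceps array for all 3 pairs, and between genotypes the quadriceps Psmb10 minus Psmb7 pair alone does not overlap.

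The knockout differences in liver and quadriceps were compared directly in a fit of all 16 arrays. With all arrays 0 of 46 genes passed, against 4.19% of all genes called (2.55% with a higher and 1.64% with a lower difference in liver). At an unadjusted p under 0.05 in limma there were 6 of the 46 (5 of 45 without Psme3ip1). The share of all genes at that unadjusted threshold is not given here, and the 4.19% does not compare with it. The lowest p belonged to Psme3ip1 (liver minus quadriceps difference 0.50, adjusted p = 0.0831), followed by Psmd13 (0.37) and Psmb2 (-0.70 ± 0.27, adjusted p = 0.152). Without null quadriceps array 8, 3 genes passed, all with a lower difference in liver, against 11.6% of all genes (7.53% higher and 4.12% lower). They were Psmb2 (-0.97 ± 0.14, adjusted p = 0.000356), Psmb4 (-0.37 ± 0.10, adjusted p = 0.0209) and Psmd8 (-0.45 ± 0.14, adjusted p = 0.0413). Psmb2 gave 690.1, 675.6, 651.9 and 732.5 in wild-type and 639.3, 626.1, 749.9 and 668.8 in null liver, so its liver genotypes overlapped. Psmb4 in quadriceps gave 1807, 1853, 1863 and 1871 in wild type and 2000, 2116, 2349 and 1681 in null arrays 5 to 8, and Psmd8 in liver 867.8, 841.3, 1028 and 780.1 against 942.9, 1035, 1184 and 1036. With median scaling and no array 8, 8 genes were higher and 1, Psmb2 (-0.59, adjusted p = 0.0174), was lower, against 18.6% higher and 2.65% lower of all genes, whose median was 0.28. Without scaling none passed with all arrays.

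Genes that work with the proteasome were read from lists of partners, regulators and ubiquitin enzymes. Of 16 partner genes, such as shuttle factors and the unfoldase Vcp, 0 passed in either knockout comparison with all arrays. Of all genes, 10.1% were called in liver and 0.826% in quadriceps. In null quadriceps without array 8, 2 partner genes were higher and 1 lower, against 2.99% and 5.27% of all genes. In wild-type liver 3 were higher and 10 lower than in quadriceps, against 34.1% and 45.3% of all genes. Ecpas, a proteasome adaptor (-1.74), and Akirin2, which carries proteasomes into the nucleus (-1.80), were among those lower. The maturation factor Pomp did not pass in the tissue comparison (0.07) or in null liver (-0.21). Of 11 transcription regulators, 1 was lower in null liver, against 5.26% of all genes. This was Nfe2l1, which drives proteasome genes when the proteasome is inhibited. It averaged 348 ± 37.2 in wild-type and 231 ± 22.9 in null liver (-0.56, adjusted p = 0.0068). It was also lower in wild-type liver than in quadriceps (-1.55). Of the 11 regulators tested there, 5 were higher in liver and 3 lower, against 34.1% and 45.3% of all genes.

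Foxo1, a regulator of ubiquitin ligases in fasted muscle, averaged 277 ± 79.4 in wild-type and 565 ± 159 in null quadriceps (0.99, adjusted p = 0.0611), and its knockout difference was lower in liver than in quadriceps (-1.46, adjusted p = 0.00859). Without null array 8, 2 of the 12 regulators then tested rose in quadriceps, against 2.99% of all genes. Of 8 muscle ubiquitin ligase genes none passed in the quadriceps comparison with or without array 8, and Fbxo32, the ligase atrogin-1, was lower in wild-type liver than in quadriceps (-7.03). Of 10 ubiquitin and E2 genes, 6 were lower in wild-type liver, against 45.3% of all genes, among them Ube2d1 (-3.58) and Ube2b (-2.49). None of the 10 passed in null liver or, with all arrays, in null quadriceps. Without array 8, 1 was higher in null quadriceps, against 2.99% of all genes. Of the 11 class I presentation genes, 1 rose in null liver, the chaperone Pdia3 (0.37, adjusted p = 0.0175), and 1 fell, tapasin, Tapbp (-0.49, adjusted p = 0.0177). Among all genes tested there, 4.87% were higher and 5.26% lower.

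The genes whose signal followed Psmb8 most closely were named by Pearson's r over the 8 arrays of a tissue, as a description. In liver they were Incenp (0.94), D230025D16Rik (0.94) and Yeats4 (0.93), and in quadriceps Thnsl2 (0.96), Glud1 (0.94) and Nhsl1 (0.93). Psmb10 had 0.88 in liver and 0.83 in quadriceps, and Psmb9 had 0.69 and -0.23. The 8 arrays share genotype and station differences.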

How the data were processed

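The arrays were read out with GCOS, per the submitters' processing notes, and the deposited values are linear signal intensities of 22690 probe sets per array; how the authors scaled them is not given in the sources. Of these, 64 were control probe sets, and 20380 of the rest had 1 gene symbol, 691 several and 1555 none. Each gene was read from its brightest one-symbol probe set. Liver was analysed as deposited. Quadriceps, tissue and 16-array comparisons were quantile-normalized over their own arrays. Values were taken as log2(signal + 16), genes above the 40th percentile were kept, and limma 3.58.1 in R 4.3.3 (lmFit, eBayes with trend) was fitted across all genes, with Benjamini-Hochberg adjustment at 0.05. The catalytic pairs were tested with exact permutation (scipy 1.17.1, Python 3.11.15), and figures were drawn with matplotlib 3.10.9. Wild-type numbers run from 1 to 4 and null numbers from 5 to 8 in both tissues; the labels do not say that a number is 1 mouse. The fits were tested on simulated data.

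Values per array are given for the 6 catalytic genes and Psme1, for genes called in a knockout comparison, for the lowest p of each particle group, and for genes at the extremes of the tissue comparison. The genes and lists were chosen with earlier results of these data known. Alternatives were other pseudocounts, filters, scalings, probe set summaries, blocks and arrays left out. No array has a count depth, so the number of arrays limits the precision.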

Additional observations from a re-analysis of the deposited data

Results flagged for a closer look

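In 7 of 186 groups of 4 arrays examined, 1 array lay far from the other 3 for a proteasome gene, where chance gives about 1 in 20 groups. In liver, wild-type array 1 had 1275 for Psma1 against 1080 to 1100, wild-type array 3 had 281.3 for Psmb10 against 409.8 to 432.7, and null array 6 had 370 for Psmd7 against 415 to 423.1. Among quadriceps arrays, wild-type array 1 had 987 for Psmb1 against 1121 to 1149 and 1627 for Psmd4 against 1456 to 1471, and wild-type array 2 had 900.2 for Psmc4 against 1105 to 1128. Null quadriceps array 8 had 417.5 for Psmb2 against 843.3 to 963.7, which is the value that separates the results with and without that array.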

How the results depend on the processing

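Over the other settings run, 169 of the counts stayed within 1.5 times the value reported and 31 moved. Of the single-gene values, 1356 kept their direction and their side of the threshold, 67 changed sign without being called, 64 lost a call, 23 gained one and 6 reversed, being called in at least 1 of the settings compared. The 2 genes lower in null liver became 0 with pseudocount 1, no filter, no trend in the variance, probe sets averaged per gene or the fluidics module as a block, and 1 with quantile normalization, median scaling or all 16 arrays in 1 fit. The 0 higher and 0 lower in null quadriceps became 1 and 1 with all 16 arrays, and 1 and 4 with median scaling and no null array 8, the 4 being Psmc3, Psmd12, Psmd5 and Psme3ip1, where 1.49% of all genes were higher and 21% lower. The 26 lower in null liver than in null quadriceps became 4 without scaling, 10 with median scaling, and 8 and 9 with these and no array 8. The shares of all genes called in those settings are not given here. For the difference between tissues in the knockout change, median scaling gave 1 higher, and with no array 8 it gave 8 higher and 1 lower. Settings that combine a scaling with leaving out array 8 were chosen after seeing the data. The 7 catalytic pair comparisons past the threshold became 0 without scaling. The quadriceps Psmb10 minus Psmb7 change then had exact p = 0.229, while the 6 tissue shifts stayed without overlap at 1.80 to 2.82 and p = 0.0286, adjusted p = 0.0571 because 6 rather than 7 of the 12 reached the smallest p. With 1 array left out, a pair test of 3 against 4 cannot go below 0.0571, so none of these was run as a call.

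Leaving out 1 array at a time gave 1 to 3 genes higher and 0 to 2 lower in null liver, 0 to 3 higher and 0 lower in null quadriceps, 12 to 13 higher and 26 to 28 lower between wild-type tissues, 11 to 12 and 23 to 28 between null tissues, and 0 higher and 0 to 3 lower for the difference in knockout change; the 3 came from null quadriceps array 8 alone. Reversed values were Psmg2 (-0.54) and Psmb4 (0.32) between wild-type tissues and Psmb4 (0.060) between null tissues with the mean of all probe sets, Psmb4 (0.21) and Psmd13 (0.27) between null tissues without scaling, and Psmd13 (0.030) without scaling and array 8. The causes were not tested.

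With the replicate number as a block, the counts stayed at 12 higher and 27 lower between wild-type tissues, 12 and 26 between null tissues, and 0 and 0 for the difference in knockout change. Deviations of same-numbered liver and quadriceps arrays had correlations of -0.078 to 0.058, and those of other-numbered arrays -0.043 to 0.066. Such deviations may be mostly array noise, so they cannot show whether a number is 1 mouse.

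Probe sets of 1 gene did not always run the same way. Among genes with several above the filter, all had the same sign in 15 of 18 in null liver and 8 of 18 in null quadriceps. Between tissues this held for 13 of 17 in wild-type and 11 of 18 in null mice. The exceptions between null tissues were Psmb4, Psmc6, Psmd13, Psmd9, Psme3, Psmf1 and Psmg2. Dim signals limit the immunoproteasome genes in quadriceps, and 4 arrays a group limit every comparison.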
